A study of Mus musculus with 2 samples.

Results

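Across the cell types of Cyp1a1 fate-reporter adipose tissue, 10 genes of the major histocompatibility complex (MHC) class I pathway were followed, of the 32285 genes in the count tables: the classical heavy chains H2-K1 and H2-D1, the light chain B2m, the non-classical heavy chains H2-Q4, H2-Q6, H2-Q7 and H2-T23, the peptide loading genes Tap1 and Tapbp, and the regulator Nlrc5. They were picked by symbol, and all 10 had a row in both tables. The set was chosen by its measured levels in these same libraries, so levels and diet ratios are given as a description and carry no test.

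The cells came from the stromovascular fraction of the gWAT, the white fat around the gonads, of male Cyp1a1Cre R26LSL-eYFP mice. Both groups carried the Cre and the reporter and received FICZ, a ligand of the aryl hydrocarbon receptor, at 10 mg/kg, 5 days before collection. The groups were a low-fat diet (LFD, 10% fat) and a high-fat diet (HFD, 60% fat), each fed for 12 weeks. The Cyp1a1 promoter drives the Cre and labelling is permanent, also in daughter cells. The sorted DAPI- eYFP+ cells, or cells they descend from, thus had Cyp1a1 on then or earlier. Cells without this history were not sampled. Mice of a diet were pooled into 1 library each, with nothing to assign a cell to a mouse, so diet, mouse pool and library cannot be told apart.

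Class I heavy chains are held at the cell surface with beta-2-microglobulin, the product of B2m, and show peptides cut from the cell's own proteins to CD8 T cells. Peptides enter the endoplasmic reticulum through a transporter of which Tap1 encodes a subunit, and tapasin, from Tapbp, holds empty heavy chains to that transporter. Nlrc5 encodes a transactivator of class I promoters, and interferons raise most genes of the pathway. The non-classical chains are less variable: H2-T23 encodes Qa-1, which is read by NKG2A receptors on NK and T cells, and H2-Q7 encodes a Qa-2 chain, which can be anchored to the membrane by a lipid.

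Except for B2m and Nlrc5, the members lie on chromosome 17 (mm10, gene spans from GENCODE M21). H2-K1 (ENSMUSG00000061232, chr17:33996017-34000347, minus strand) and H2-D1 (ENSMUSG00000073411, chr17:35262730-35267499, plus strand) flank much of the complex. H2-Q4 (chr17:35379617-35385290), H2-Q6 (chr17:35424850-35430055) and H2-Q7 (chr17:35439155-35443773) follow H2-D1 on the plus strand, and H2-T23 (chr17:36029773-36032855) is on the minus strand further along. Tapbp (chr17:33915899-33929292) and Tap1 (chr17:34187553-34197225) stand on either side of H2-K1, on the plus strand. B2m (chr2:122147686-122153083) and Nlrc5 (chr8:94434356-94527272) are elsewhere, and all 10 are protein-coding.

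The promoters of 3 heavy chains are shown because of how their levels varied: H2-K1 as the main classical chain, H2-Q7 as a chain that differed widely between cell types and was lower in the HFD library in most of them, and H2-T23 as the chain that was higher in every one compared. Each runs from 250 bases before to 50 bases after a RefSeq start site (GRCm38.p6), for H2-K1 the more downstream of 2 listed. Capitals mark 4 motifs searched on both strands: ATTGG (the Y box core), TGACGC (the X2 box core), GAANNGAAA (an interferon response sequence) and the kappa B consensus (GGG, A, then 3 bases of any kind, CCC).
H2-K1, chr17:34000284-34000583, minus strand: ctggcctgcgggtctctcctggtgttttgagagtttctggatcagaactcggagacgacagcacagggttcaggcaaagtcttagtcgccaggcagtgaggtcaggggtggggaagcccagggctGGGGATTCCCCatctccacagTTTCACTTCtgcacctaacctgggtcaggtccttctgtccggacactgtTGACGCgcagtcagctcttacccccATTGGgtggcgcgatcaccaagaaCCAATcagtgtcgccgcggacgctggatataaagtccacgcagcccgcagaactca
H2-Q7, chr17:35438905-35439204, plus strand: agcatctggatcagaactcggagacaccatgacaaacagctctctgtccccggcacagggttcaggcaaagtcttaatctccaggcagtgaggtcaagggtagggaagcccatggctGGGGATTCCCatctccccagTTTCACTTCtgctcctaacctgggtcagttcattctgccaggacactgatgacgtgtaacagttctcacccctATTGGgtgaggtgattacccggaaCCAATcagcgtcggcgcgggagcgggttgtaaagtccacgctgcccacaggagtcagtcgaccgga
H2-T23, chr17:36032652-36032951, minus strand: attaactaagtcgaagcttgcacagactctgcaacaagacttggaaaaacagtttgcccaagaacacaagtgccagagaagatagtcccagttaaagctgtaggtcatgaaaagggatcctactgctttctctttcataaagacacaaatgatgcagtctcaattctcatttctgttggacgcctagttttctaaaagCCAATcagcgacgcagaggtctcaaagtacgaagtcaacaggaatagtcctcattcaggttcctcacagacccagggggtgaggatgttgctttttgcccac

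A promoter was in the table for 9 of the 10 members, all but Nlrc5. The Y box letters were in all 9, against 37.4% of all 32851 promoters of the same length. The interferon response letters were in 5, against 7.52% of all, and the kappa B letters also in 5, against 5.55%, and in both cases these were H2-K1, H2-D1, H2-Q4, H2-Q6 and H2-Q7. The X2 box letters were in 3, against 7.4%, namely H2-K1, H2-D1 and H2-Q4. In the windows shown, H2-K1 and H2-Q7 each had 2 Y box matches and 1 interferon response match, and the 2 kappa B matches of H2-K1 overlap each other. The H2-T23 window had 1 Y box match and none of the other 3 motifs. These are matches of letters only, and what binds there was not measured.

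After filtering, 9294 LFD cells with a median of 10223 UMIs (unique molecular identifiers, 1 per captured RNA molecule) and 7879 HFD cells with a median of 12722 UMIs remained. Clusters were computed without any class I gene and named from marker lists. They gave 14 types, of which 12 had at least 100 cells in both libraries, and 1 small cluster stayed unnamed. The largest cluster, with all 11 stromal markers but fewer than 2 markers of any stromal subtype among its 10 leading genes, is called stromal-like. Cycling clusters were given no stromal subtype. Of the mesothelial markers 11 were raised in mesothelial-like, 11 in cycling stromal-like, 8 in stromal-like and 1 in adipose progenitor-like cells. The names stromal-like and cycling stromal-like therefore do not mean that mesothelial cells are absent. In the T/NK-like cluster 8 of 9 T cell markers and 5 NK cell markers were raised. A cluster was called cycling where Mki67 and Top2a were each detected in at least 50% of its cells. Mki67 was detected in 49.05% of plasma cell-like and 98.28% of cycling plasma cell-like cells, so the former name does not mean non-cycling. The libraries shared 27 cell barcodes, of which 21 were kept in both, and without those cells no level, diet ratio or non-classical share of the members moved beyond its counting interval. A level is the summed UMIs of a gene per 1000000 UMIs of a type (CPM), with no correction for gene length, since a 3' tag gives 1 UMI per molecule. Every interval is a 95% counting interval and leaves out differences between mice and libraries. Median-ratio scaling in place of totals subtracts 0.132 from the log2 ratios in mesothelial-like, 0.133 in cycling stromal-like and 0.158 in endothelial-like cells, and -0.197 in plasma cell-like cells.

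The classical chains were the main class I transcripts in every type. H2-K1 was highest in ILC2-like cells, group 2 innate lymphoid cells, at 3130 CPM in the LFD library (2992 to 3272) and 3605 CPM in the HFD library (3427 to 3790). T/NK-like cells came next, at 2184 and 2428 CPM, and their intervals lay below those of ILC2-like cells in both libraries. Endothelial-like cells had 1513 and 1829 CPM, plasma cell-like cells 1902 and 1431, and B-like cells 1542 and 1266. The stromal cells were at the bottom of the order, with 689 and 558 CPM in stromal-like cells and 576 and 569 CPM in adipose progenitor-like cells. Mesothelial-like cells stood above the other stromal types at 1221 and 824 CPM. Their HFD level was 1490 CPM (1371 to 1612) under a stricter cell filter of 1000 to 25000 UMIs and under 5% mitochondrial UMIs. The cells left by that filter were clustered and named anew. Then 26 HFD cells were mesothelial-like in place of 1640, and 600 stromal-like in place of 1231, so a name need not cover the same cells. From the highest to the lowest type, the mean of the libraries spanned 5.88-fold. Assigning cells by markers without clusters, which gave 154 LFD and 185 HFD ILC2-like cells in place of 111 and 101, turned this order in the HFD library. ILC2-like cells then had 2180 CPM in LFD, still the highest level, but 1490 CPM (1426 to 1552) in HFD, below endothelial-like cells (1840 CPM) and T/NK-like cells (1640 CPM). Adipose progenitor-like cells had 1100 CPM in LFD by the same assignment, and stromal-like cells were lowest at 529 and 387 CPM.

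By the mean of the libraries, H2-D1 ran from 1891 and 2418 CPM in ILC2-like cells, with neutrophil-like cells next at 2114 and 2027 CPM, down to 339 and 447 CPM in adipose progenitor-like cells. With cells assigned by markers the HFD level in ILC2-like cells was 1050 CPM and the LFD level in adipose progenitor-like cells 644 CPM. H2-D1 was the larger classical chain in both libraries in 2 types, both myeloid. In macrophage-like cells H2-D1 reached 1226 CPM (LFD) and 1426 CPM (HFD) against 1063 and 954 CPM of H2-K1, so H2-K1 made up 46.4% and 40.1% of the classical UMIs. In neutrophil-like cells the H2-K1 share was 33.2% and 29.5%. In the LFD library the H2-K1 share lay between 53.85% (endothelial-like) and 63% (adipose progenitor-like) in the other types. The H2-K1 share was lower in the HFD library than in the LFD library in 13 of 14 types, the exception being T/NK-like cells with 58.8% and 59.7%.

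By the mean of the libraries, B2m ranged from 2029 and 2435 CPM in ILC2-like cells to 611 and 387 CPM in cycling stromal-like cells, and with cells assigned by markers the HFD level in ILC2-like cells was 1120 CPM. Relative to the 6 heavy chains together, it was highest in macrophage-like cells of the LFD library, with 0.660 B2m UMIs per heavy chain UMI (0.634 to 0.688), and in plasma cell-like cells of the HFD library, with 0.592 (0.581 to 0.604). The same ratio was 0.508 in HFD macrophage-like cells and 0.426 in LFD plasma cell-like cells, so the 2 types differed between libraries in opposite directions.

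**Figure D1:**
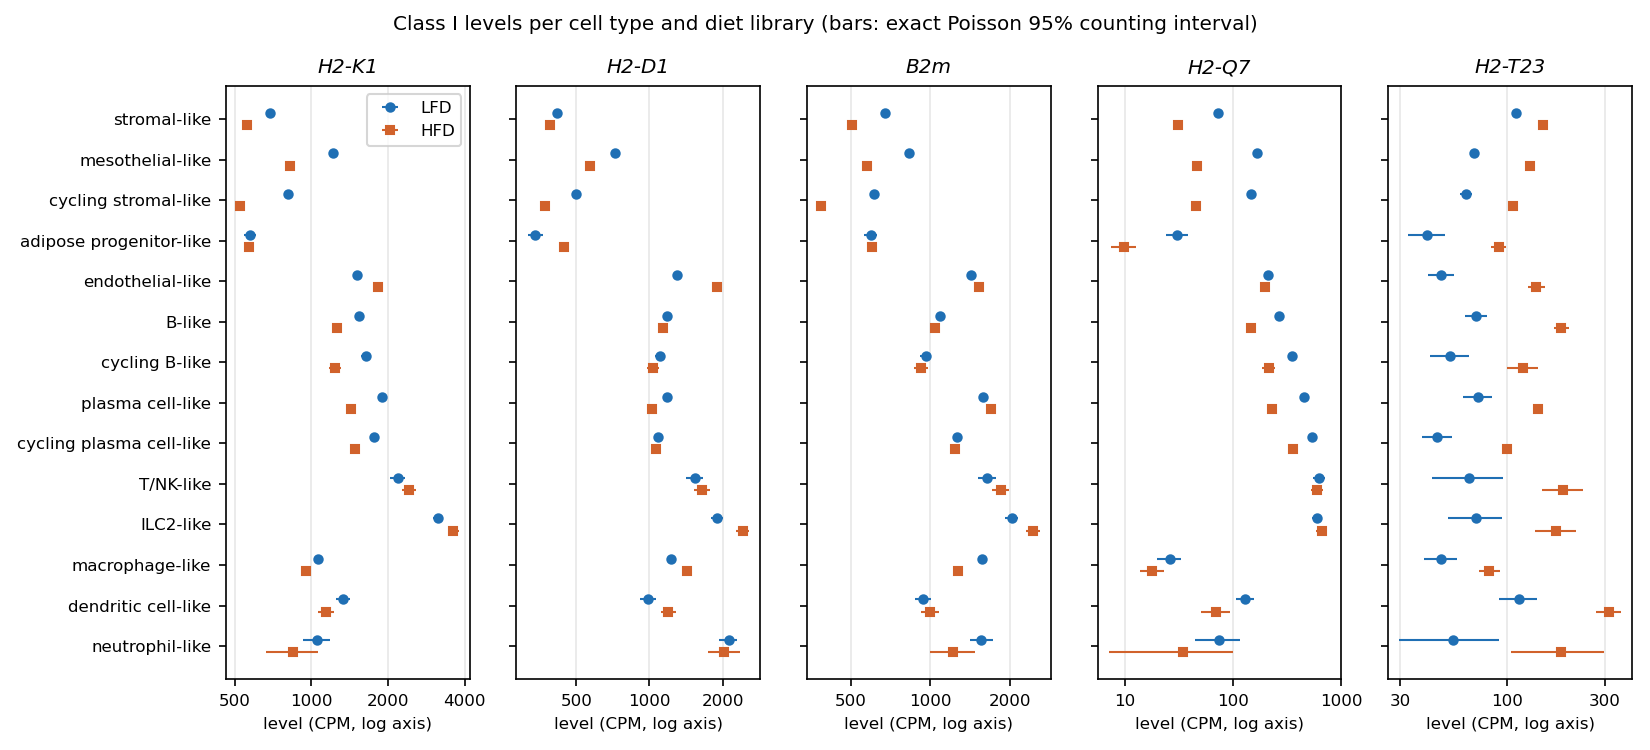
Levels of 5 class I genes (CPM, log axis) in the 14 named cell types, with 1 point per diet library and its 95% Poisson counting interval. H2-K1, H2-D1 and B2m span 5.88-, 5.48- and 4.47-fold between types, whereas H2-Q7 goes from 589 and 660 CPM in ILC2-like cells to 30.5 and 9.85 CPM in adipose progenitor-like cells. The HFD squares of H2-T23 lie to the right of the LFD circles in every row.

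H2-Q7 reached the highest levels of the non-classical chains, with a 30.9-fold span between types of the mean of the libraries. It was highest in ILC2-like cells, at 589 CPM (interval 530 to 652.5) in the LFD library and 660.4 CPM (interval 585 to 742) in the HFD library, and in T/NK-like cells, where the LFD level was 620 CPM (545 to 702) and the HFD level 596 CPM (523 to 676). These neighbours in the order overlapped. Cycling plasma cell-like cells had 537 and 359 CPM, and plasma cell-like cells 450 and 231 CPM. Lower levels were seen in cycling B-like cells (347 and 213 CPM), B-like cells (265 and 147 CPM) and endothelial-like cells (212 and 196 CPM). Mesothelial-like cells had 166 and 46.7 CPM, cycling stromal-like cells 145 and 45.4 CPM, and stromal-like cells 73 and 31 CPM. The lowest values were those of macrophage-like cells, 25.9 and 17.9 CPM, and of adipose progenitor-like cells, 30.5 and 9.85 CPM. Both ends of this order depended on how cells were assigned. With cells assigned by markers, ILC2-like cells had 380 and 225 CPM of H2-Q7 and T/NK-like cells 329 and 344 CPM, so that plasma cell-like cells were highest in LFD (488 CPM) and T/NK-like cells in HFD. Adipose progenitor-like cells then had 114 and 31.5 CPM, macrophage-like cells were lowest at 23.4 and 14.6 CPM, and the span was 20.7-fold. With doublets kept, the LFD level of macrophage-like cells was 42.2 CPM and the HFD level of adipose progenitor-like cells 20.8 CPM. Stromal-like cells had 136 and 47.2 CPM under the stricter cell filter, where new clustering named 837 LFD and 600 HFD cells stromal-like and 51 and 26 mesothelial-like. That filter also gave 230 CPM in the 19 HFD cells then named B-like. The HFD level of stromal-like cells was 15.5 CPM with cells assigned by markers.

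H2-Q6, a close relative of H2-Q7, was highest in lymphoid clusters. It reached 166 and 220 CPM in T/NK-like cells and 180 and 204.5 CPM in ILC2-like cells, but 2.39 and 4.99 CPM in macrophage-like cells, the lowest mean, from 6 and 17 UMIs, a 52.3-fold span that rests on these few UMIs. With cells assigned by markers, H2-Q6 was at 86.9 and 108 CPM in T/NK-like cells and at 111 and 69.4 CPM in ILC2-like cells, B-like cells were highest in LFD at 151 CPM and endothelial-like cells in HFD at 116 CPM, and the span was 39.9-fold. With doublets kept, the LFD level of macrophage-like cells was 8.3 CPM, and under the stricter cell filter their HFD level was 11.9 CPM. H2-Q4 was highest in endothelial-like cells, at 92.1 and 127 CPM (in LFD 149 CPM under the stricter filter and 145 CPM as the mean of per-cell CPM), and lowest, by the mean of the libraries, in macrophage-like cells, at 13.2 and 13.8 CPM. Reads from these chains can be hard to place. In GENCODE M21, 26.6% of the 91-base words in the last 500 bases of H2-Q6 transcripts also occur in another gene, 21.3% in H2-Q7. For the other heavy chains that share was between 2.2% (H2-K1) and 8.8% (H2-D1), and for B2m, Tap1, Tapbp and Nlrc5 it was 0. The H2-Q6 counts are therefore the least certain of the set in the placing of reads.

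H2-T23 was the most even of the heavy chains, with a 3.31-fold span. In the LFD library its levels were 111 CPM in stromal-like cells, 69.3 in mesothelial-like, 63 in cycling stromal-like and 40.6 in adipose progenitor-like cells. They were 47.6 CPM in endothelial-like cells, 70.6 in B-like, 52.9 in cycling B-like, 72 in plasma cell-like and 45.6 in cycling plasma cell-like cells. T/NK-like cells had 65.5 CPM, ILC2-like cells 70.8 and macrophage-like cells 47.5. In the HFD library the levels in the same order were 149, 129.5, 108 and 91.5 CPM in the stromal types. Endothelial-like cells had 139 CPM, B-like cells 185, cycling B-like cells 119, plasma cell-like cells 142 and cycling plasma cell-like cells 100 CPM. T/NK-like, ILC2-like and macrophage-like cells had 188, 174 and 82 CPM. Every HFD value was above the LFD value of the same type, beyond counting error. With cells assigned by markers the LFD level of adipose progenitor-like cells was 123 CPM in place of 40.6. The stricter cell filter gave LFD levels of 38.8 CPM in mesothelial-like and 32.4 CPM in T/NK-like cells, and the mean of per-cell CPM gave 78.7 CPM in LFD endothelial-like cells.

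Together, the 4 non-classical chains took between 10.3% and 21.7% of heavy chain UMIs in the types other than macrophage-like and neutrophil-like cells. Adipose progenitor-like cells were the lowest of these, at 10.3% (9.10 to 11.6) in LFD and 10.7% (9.98 to 11.5) in HFD. The share was 16.8% (16.5 to 17.2) in LFD and 17.9% (17.4 to 18.4) in HFD stromal-like cells, 13% and 13.1% in mesothelial-like cells, and 16.2% and 16.1% in B-like cells. In the 26 HFD cells named mesothelial-like after new clustering under the stricter cell filter it was 7.93%. It was highest in LFD cycling plasma cell-like cells, at 20.6% (19.9 to 21.4), and in HFD T/NK-like cells, at 21.7% (19.9 to 23.5). Cycling plasma cell-like cells had a lower share in HFD, 17.9% (17.5 to 18.3). So did plasma cell-like cells, with 14.3% (13.9 to 14.8) in HFD against 16.6% (15.8 to 17.5) in LFD. In dendritic cell-like cells the share was higher in HFD, at 16.1% against 12.1%. The lowest shares were those of macrophage-like cells, with 3.74% (3.27 to 4.25) in LFD and 4.75% (4.31 to 5.22) in HFD, from 223 and 404 non-classical UMIs, and of neutrophil-like cells, with 7.18% (5.56 to 9.10) and 7.72% (4.84 to 11.6). The intervals of these neighbours overlapped in the HFD library and not in the LFD library, and under the stricter cell filter the LFD share of neutrophil-like cells was 3.29%. In macrophage-like cells the classical chains together, 2289 and 2380 CPM, were not far from those of B-like cells, 2722 and 2407 CPM, whereas the non-classical chains were at 88.9 and 119 CPM against 528 and 462 CPM.

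**Figure D2:**
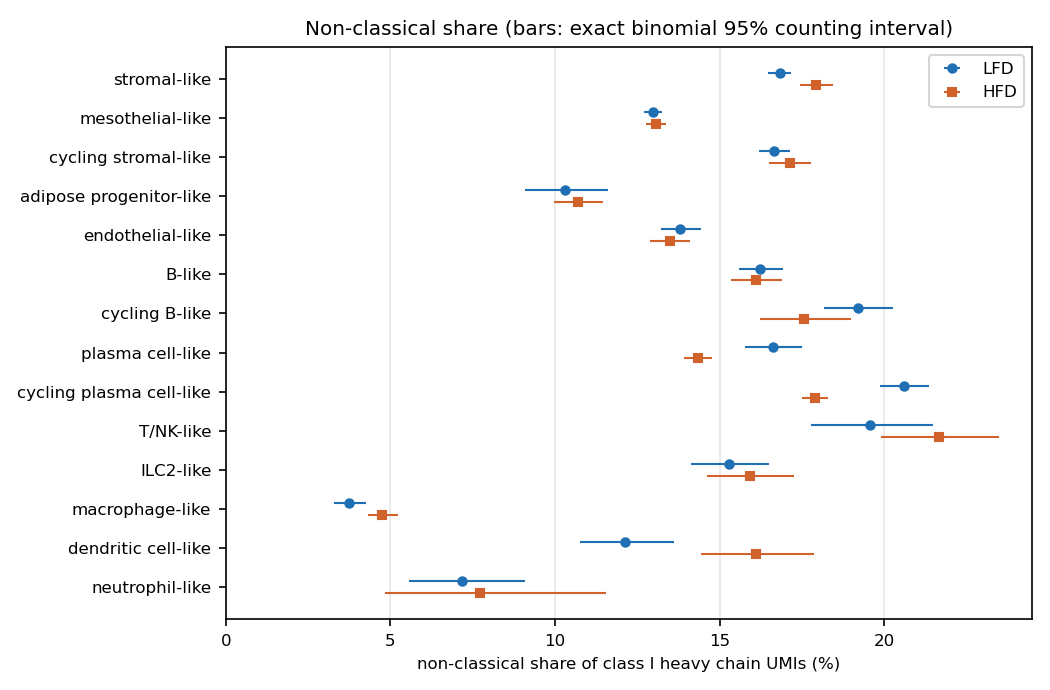
Share of the 4 non-classical chains in all class I heavy chain UMIs (%), per cell type and diet library, with exact binomial 95% intervals. Macrophage-like cells lie at 3.74% and 4.75%, the lowest values in the plot, with neutrophil-like cells next at 7.18% and 7.72%.

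Within that share the make-up differed between the libraries. In mesothelial-like cells H2-Q7 made up 57.3% of the non-classical UMIs in LFD and 22.3% in HFD, whereas H2-T23 made up 23.95% and 61.8%. In cycling stromal-like cells H2-Q7 had 55.5% in LFD and 24.6% in HFD, and H2-T23 24.1% and 58.25%. B-like cells had 50.1% and 31.9% of H2-Q7 and 13.4% and 40% of H2-T23. In stromal-like cells H2-T23 was the larger chain in both libraries, at 49.6% and 72.1%. H2-Q7 stayed the larger one in plasma cell-like cells, at 73.2% and 56.2%, and in ILC2-like cells, at 65% and 57.9%.

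**Figure D3:**
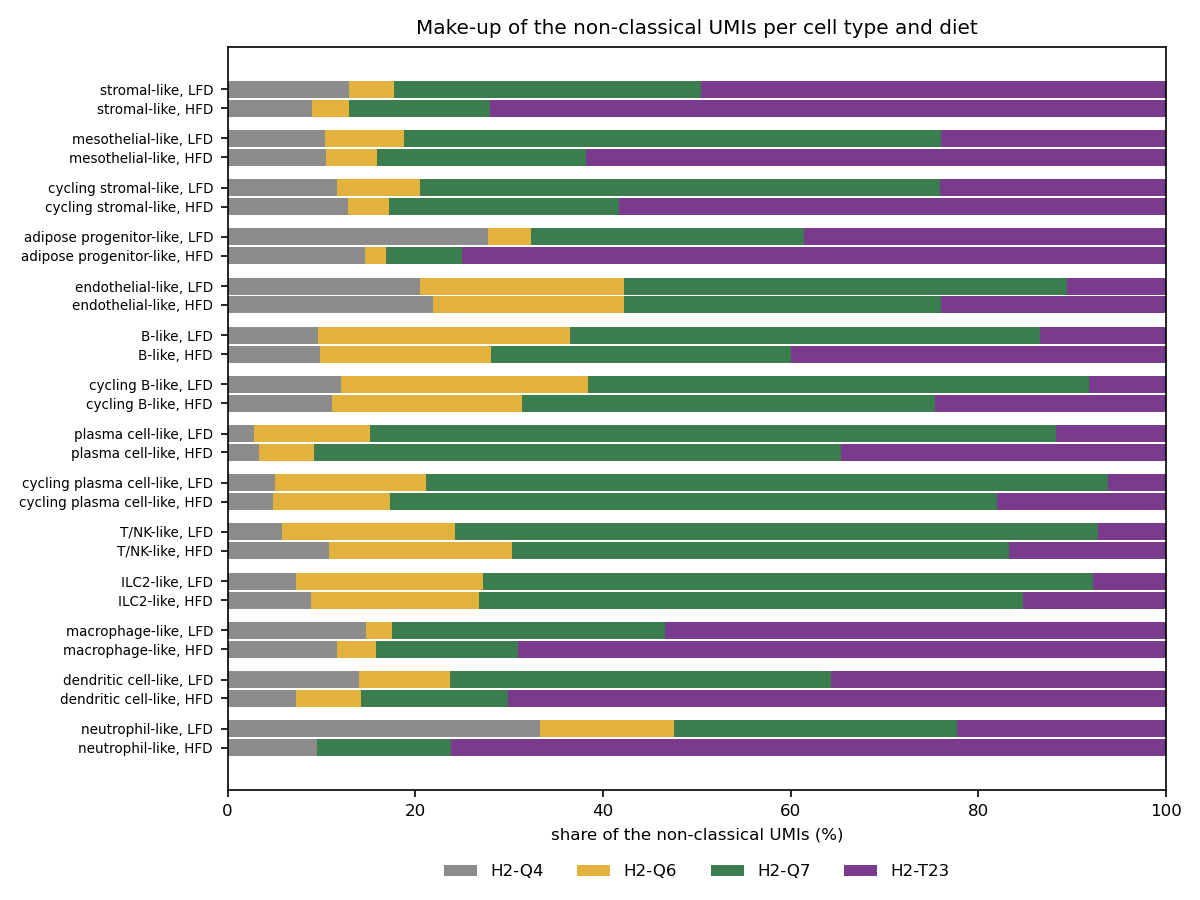
Make-up of the non-classical UMIs (%) in the LFD and HFD library of each cell type, as stacked bars of H2-Q4, H2-Q6, H2-Q7 and H2-T23. The H2-T23 part is wider in the HFD bar of every type, for example 61.8% against 23.95% in mesothelial-like cells.

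The diet comparison was made in the 12 types with enough cells, as the ratio of HFD to LFD CPM. H2-T23 was higher in the HFD library in all 12, from 1.35-fold (1.28 to 1.41) in stromal-like cells to 2.92-fold (2.45 to 3.495) in endothelial-like cells, with a median of 2.22-fold. It was at least 1.5-fold higher in 11 of the 12. The ratio was 1.87 (1.77 to 1.98) in mesothelial-like cells, 2.26 (1.81 to 2.84) in adipose progenitor-like cells, 2.61 (2.25 to 3.04) in B-like cells and 1.73 (1.39 to 2.16) in macrophage-like cells. With every cell thinned to 1000 UMIs, the share of macrophage-like cells with an H2-T23 UMI was 4.97% (3.33 to 7.11) in LFD and 5.45% (3.65 to 7.78) in HFD, where it was 17.9% and 36.9% before thinning, so a difference was not detectable at that depth. The thinned intervals were apart in 6 of the 12 types, for example 8.50% (6.77 to 10.5) and 18.7% (15.9 to 21.7) in B-like cells. Assigning cells by markers without clusters gave lower H2-T23 ratios of 1.10 (1.02 to 1.18) in adipose progenitor-like and 1.45 (1.142 to 1.85) in ILC2-like cells.

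H2-Q7 was lower in the HFD library beyond counting error in 9 types and at least 1.5-fold lower in 7. Of 4311 genes with at least 20 UMIs in every type, 4.22% were lower beyond counting error in at least 9 types. Such shares were not computed for smaller counts of types, so those of the other members stand without one. The lowest ratios were those of the stromal types: 0.282 (0.265 to 0.2999) in mesothelial-like, 0.313 (0.285 to 0.344) in cycling stromal-like, 0.323 (0.224 to 0.463) in adipose progenitor-like and 0.425 (0.389 to 0.464) in stromal-like cells. Plasma cell-like cells had 0.512 (0.473 to 0.554), B-like cells 0.557 (0.497 to 0.623), cycling B-like cells 0.613, cycling plasma cell-like cells 0.669 and macrophage-like cells 0.691 (0.479 to 0.996), the last being 0.766 (0.392 to 1.505) under the stricter cell filter. In endothelial-like cells (0.922, 0.828 to 1.03), T/NK-like cells (0.961, 0.802 to 1.15) and ILC2-like cells (1.12, 0.956 to 1.31) the difference was within counting error. With cells assigned by markers without clusters the stromal-like ratio was 0.242 and the ILC2-like ratio 0.594 (0.512 to 0.687), and with doublets kept the adipose progenitor-like ratio was 0.503. H2-Q6 was lower beyond counting error in 7 types, with the lowest ratio, 0.318 (0.258 to 0.394), in plasma cell-like cells (0.483 with cells assigned by markers), and higher in endothelial-like cells at 1.20 (1.03 to 1.39), where the mean of per-cell CPM gave 0.867, and median-ratio size factors (1.07) and the stricter cell filter (1.04) gave intervals that included 1. In stromal-like cells, one of the 7, the H2-Q6 ratio was 0.744 with clusters, 0.179 (0.0761 to 0.362) with cells assigned by markers and 0.83 (0.459 to 1.39) without integration.

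Free RNA from lysed cells was bounded with Jchain and Igkc, antibody genes that only B-lineage cells should make. If all of their UMIs in another type were free RNA with the make-up of the library, free RNA gave at most 28.6 of the 30.5 CPM of H2-Q7 in LFD adipose progenitor-like cells, and at most 3.13 of 9.85 CPM in HFD. Jchain in those LFD cells was at 18.4% of its level in the whole library, against 2.93% in HFD, and the part of this in the H2-Q7 ratio was not tested. The bound for H2-Q7 was 3.87 of 73 CPM in LFD stromal-like, 2.37 of 166 CPM in LFD mesothelial-like and 5.10 of 25.9 CPM in LFD macrophage-like cells. For H2-T23 it was 14.6 of 40.6 CPM in LFD adipose progenitor-like cells, 14.7 of 314 CPM in HFD dendritic cell-like cells, and at most 6.55 CPM in every other type and library outside the B lineage.

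The direction of the classical chains differed between types. H2-K1 was lower in the HFD library in 8 types, most in cycling stromal-like cells at 0.646 (0.627 to 0.666) and mesothelial-like cells at 0.675 (0.664 to 0.686), with 0.809 in stromal-like, 0.752 in plasma cell-like and 0.821 in B-like cells. It was higher in endothelial-like cells at 1.21 (1.17 to 1.25), in ILC2-like cells at 1.15 (1.08 to 1.23) and in T/NK-like cells at 1.11 (1.01 to 1.22). H2-D1 was also lowest in cycling stromal-like cells, at 0.742 (0.715 to 0.770), and highest in endothelial-like cells, at 1.455 (1.40 to 1.51). H2-D1 was higher in 3 further types, adipose progenitor-like (1.32), ILC2-like (1.28) and macrophage-like cells (1.16). Some of these directions turned with the processing. Assigning cells by markers without clusters gave H2-D1 ratios of 0.829 in adipose progenitor-like cells and 0.779 in ILC2-like cells, and an H2-K1 ratio of 0.684 in ILC2-like cells. The mean of per-cell CPM gave an H2-K1 ratio of 0.989 in T/NK-like cells.

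B2m was lower in 3 of the stromal types, at 0.749 (0.731 to 0.767) in stromal-like, 0.693 in mesothelial-like and 0.634 (0.613 to 0.657) in cycling stromal-like cells. It was within counting error in B-like, cycling B-like, cycling plasma cell-like and adipose progenitor-like cells (in the last 0.67, 0.650 to 0.690, with cells assigned by markers), and at 1.12 (1.01 to 1.25) in T/NK-like cells. Macrophage-like cells had less B2m in HFD (0.809, 0.774 to 0.845) although H2-D1 was higher there. B2m was higher in plasma cell-like cells at 1.075 (1.03 to 1.12) and in ILC2-like cells at 1.20 (1.10 to 1.304), where assignment by markers gave 0.75. In endothelial-like cells the B2m ratio was 1.07 with totals, 0.96 with median-ratio size factors and 0.981 with the mean of per-cell CPM.

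The loading genes differed from each other. Tap1 was lower in HFD beyond counting error in 7 of 12 types, with ratios of 0.599 (0.438 to 0.816) in macrophage-like, 0.671 in plasma cell-like, 0.683 in cycling plasma cell-like and 0.726 in cycling stromal-like cells, and its highest ratio was 0.998 in mesothelial-like cells. The stromal-like Tap1 ratio of 0.817, one of the 7, had an interval that included 1 with doublets kept (0.926), under the stricter cell filter (0.946) and without integration (0.757). Tapbp was higher in 4 types, stromal-like (1.18), mesothelial-like (1.29), cycling stromal-like (1.33) and endothelial-like cells (1.43, 1.29 to 1.59). It was lower in macrophage-like (0.758, 0.673 to 0.854) and cycling plasma cell-like cells (0.867), in the latter within counting error with doublets kept (0.973), with median-ratio size factors (0.914) and with immunoglobulin genes left out of the total (0.921). The transactivator Nlrc5 was barely detected, with at most 68 UMIs in any type of either library. By the mean of the libraries its level was highest in T/NK-like cells, at 22.7 CPM (10.4 to 43) from 9 UMIs in LFD and 56.9 CPM (36.1 to 85.3) from 23 UMIs in HFD. In LFD dendritic cell-like cells, at 20.5 CPM, overlapped it, and under 5 alternatives these or B-like cells were above T/NK-like cells. The HFD level of T/NK-like cells was 29.4 CPM with doublets kept, 30.1 without integration, 26.3 with cells assigned by markers, 90.6 as the mean of per-cell CPM and 108 under the stricter cell filter. Nlrc5 was at 1.98 and 1.09 CPM in stromal-like cells, a ratio of 0.548 (0.321 to 0.903). That ratio was 0.215 with cells assigned by markers, where the HFD level was 0.321 CPM, and 0.629 (0.0742 to 2.39) without integration. At this depth the Nlrc5 interval reached 1 in 8 of the 12 types.

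**Figure D4:**
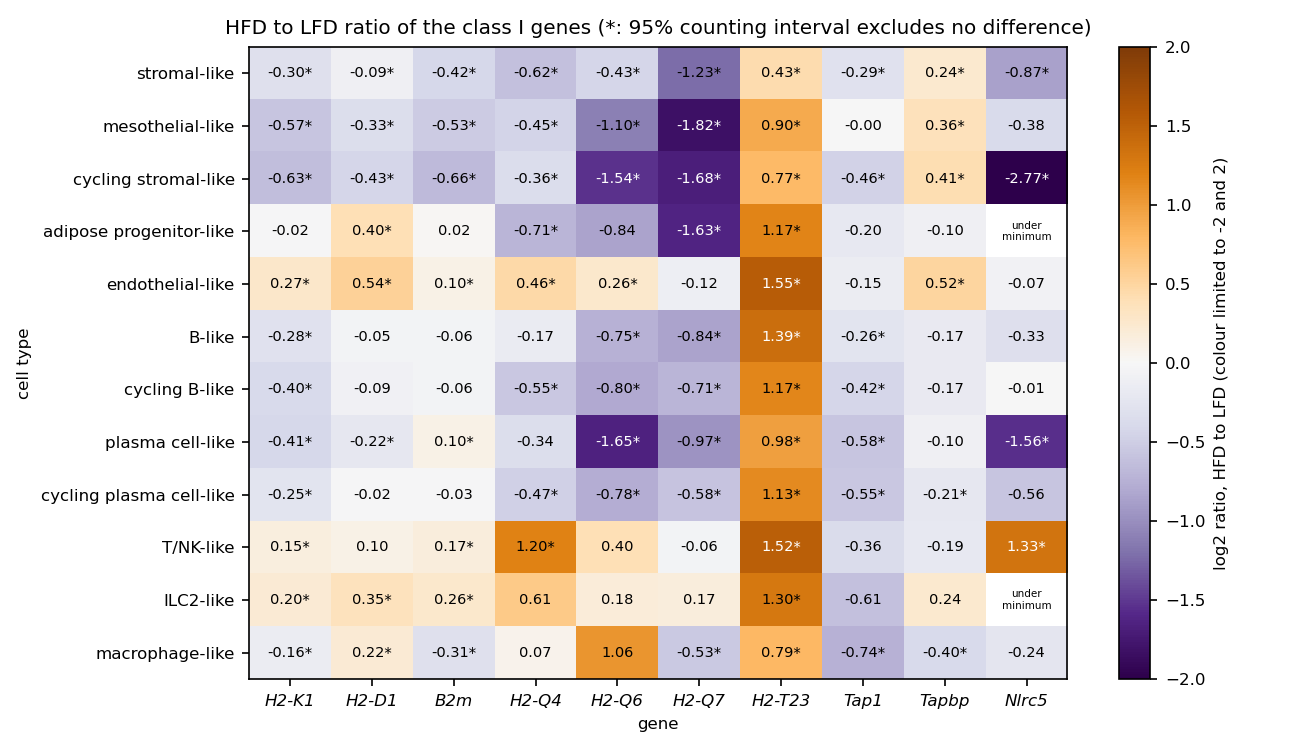
HFD to LFD ratio on the log2 scale for the 10 genes (columns) in 12 cell types (rows), orange where HFD is higher and purple where it is lower, with an asterisk where the counting interval excludes no difference. The H2-T23 column is orange with an asterisk in all 12 rows, and the H2-Q7 column is purple with an asterisk in 9 of 12. Of 4311 genes with at least 20 UMIs in every type, 0.139% were higher beyond counting error in all 12 and 4.22% lower in at least 9.

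Counted per type, with 1.5-fold as the limit and genes with at least 20 UMIs over both libraries, the members compared with all genes as follows, and since the members were chosen on these data nothing is read from the counts. In stromal-like cells 3 of 10 members were lower (H2-Q4, H2-Q7, Nlrc5), against 9.72% of all 13768 genes tested, and 0 were higher, against 8.98%. Mesothelial-like cells had 2 lower (H2-Q6, H2-Q7), against 5.33% of all genes, and H2-T23 higher, against 10.94%. Among cycling stromal-like cells 5 were lower (H2-K1, B2m, H2-Q6, H2-Q7, Nlrc5), against 5.56%, and H2-T23 higher, against 9.74%. Adipose progenitor-like cells had 3 of 9 lower (H2-Q4, H2-Q6, H2-Q7), against 7.41%, and H2-T23 higher, against 17.44%. The H2-Q6 ratio there, 0.557 (0.243 to 1.33), came from 11 and 16 UMIs, and the LFD level of 4.80 CPM was below the 6.32 CPM that free RNA could give. Endothelial-like cells had 0 lower, against 8.65%, and H2-T23 higher, against 21.61%.

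B-like cells had 2 members lower (H2-Q6, H2-Q7), against 8.91% of all genes, and H2-T23 higher, against 11.54%. The same 3 genes were past the limit in cycling B-like cells, where 7.59% of all genes were lower and 10.32% higher. Plasma cell-like cells had 3 lower (H2-Q6, H2-Q7, Nlrc5), against 15.83%, and H2-T23 higher, against 10.08%. Cycling plasma cell-like cells had H2-Q6 lower, against 7.65%, and H2-T23 higher, against 7.96%. T/NK-like cells had 0 lower, against 10.74%, and 3 higher (H2-Q4, H2-T23, Nlrc5), against 16.75%. The H2-Q4 ratio of 2.29 (1.35 to 4.02) was 1.39 (0.964 to 2.00) with cells assigned by markers, and the Nlrc5 ratio of 2.51 was 1.61 (0.850 to 3.09) without integration and 1.71 (0.918 to 3.26) with doublets kept. ILC2-like cells had Tap1 lower of 9 members, against 15.15%, and H2-Q4 and H2-T23 higher, against 19.69%, and the Tap1 and H2-Q4 intervals included 1, with H2-Q4 at 0.937 with cells assigned by markers. Macrophage-like cells had Tap1 lower, against 6.38%, and H2-Q6 and H2-T23 higher, against 10.61%, the H2-Q6 ratio of 2.09 having an interval of 0.785 to 6.47 and being 0.808 with doublets kept.

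The next 2 comparisons were added after the H2-T23 values had been seen. Of 4311 genes with at least 20 UMIs in every type, 6 had a ratio above 1 beyond counting error in all 12 (0.139%), H2-T23 among them, and 27 had one below 1 in all 12. The other 5 that were higher were Pfn1, which encodes profilin (median ratio 2.70), Gm42418 (1.52), Serinc3 (1.38), Hnrnpa2b1 (1.26) and Malat1, a nuclear RNA (1.25). Among the 27 lower ones were Saa3 (0.180), Timp1 (0.293), Slpi (0.358), Col1a2 (0.521) and Col1a1 (0.542), secreted or matrix products of stromal cells, as well as many ribosomal protein genes. Whether RNA quality or free RNA, which such genes can follow, had a part in the H2-T23 ratio was not tested.

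The same ratios were then read along chromosome 17. Between Tapbp and H2-M3 (chr17:33915899-37274484), 51 of 204 genes had 20 UMIs in every type, of which 43 were outside the set. The median ratios of those 43 ran from 0.745 to 1.51 with a middle value of 0.981, and 0 of them were higher beyond counting error in all 12 types. The next heavy chain gene, H2-T22, had a median ratio of 1.09 (0.927 to 1.55 over types), and Gnl1, on the other side, 0.997 (0.830 to 1.24). H2-Q6 and H2-Q7, at 0.590 and 0.585, were the lowest of the 51, and H2-T23, at 2.22, the highest.

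**Figure D5:**
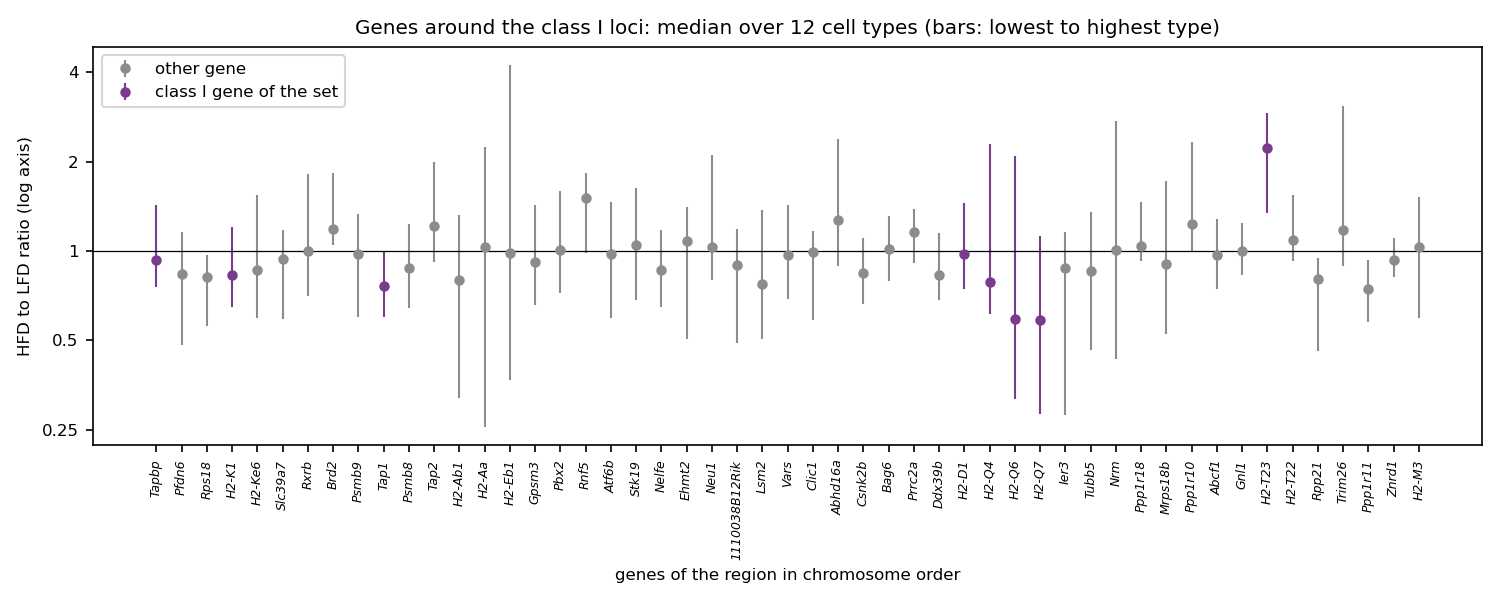
HFD to LFD ratio (log axis) of the 51 genes between Tapbp and H2-M3 with enough counts, in chromosome order, as the median over 12 cell types with bars from the lowest to the highest type. H2-T23 lies at 2.22, above the other 50, and H2-Q6 and H2-Q7 lie lowest at 0.590 and 0.585.

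The other genes of the pathway were taken from lists. Of 15 further heavy chain genes 13 had a row in the tables, and at most 8 of them passed 20 UMIs in any type. The MR1 and CD1 relatives included Cd1d1, lower in stromal-like cells at 16.6 against 25.4 CPM (0.654, 0.574 to 0.743). H2-M2 was higher in the same cells, at 5.53 against 3.02 CPM (1.83, 1.38 to 2.43). There 1 of 8 was at least 1.5-fold higher and 2 lower, against 8.98% and 9.72% of all genes. H2-M3 was higher in endothelial-like cells at 39.4 against 26 CPM (1.52, 1.15 to 2.00). All 15 genes of peptide supply and loading passed the minimum in every type. In 8 types between 1 and 3 of them were at least 1.5-fold higher and 0 lower, where 8.98% to 21.61% of all genes were higher and 5.33% to 10.74% lower. All genes, too, were more often higher than lower in these 8 types, except in stromal-like cells. Adipose progenitor-like cells had 1 higher and 2 lower, against 17.44% and 7.41% of all genes, and ILC2-like cells 2 and 2, against 19.69% and 15.15%. Plasma cell-like cells had 0 and 1, against 10.08% and 15.83%, and cycling plasma cell-like cells 0 and 0, against 7.96% and 7.65%. Nothing is read from these counts. Tap2, the partner of Tap1 in the transporter, was higher in mesothelial-like cells at 61.2 against 36.9 CPM (1.66, 1.54 to 1.79) and in endothelial-like cells at 106 against 63.5 CPM (1.68, 1.41 to 1.99), where the Tap1 ratios were 0.998 and 0.898. Tapbpl, a relative of tapasin, was at least 1.5-fold higher in 5 types, and in the 4 with 100 UMIs or more the ratio lay between 1.70 in mesothelial-like and 2.10 in cycling stromal-like cells. The immunoproteasome subunit gene Psmb9 was lower in plasma cell-like cells (0.598, 0.510 to 0.703), and Psmb8 was lower in adipose progenitor-like cells (0.643, 0.556 to 0.746).

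Of 25 regulators of class I genes, between 17 and 25 passed the minimum per type, and their median log2 ratios were between -0.161 in plasma cell-like cells and 0.324 in ILC2-like cells, where all genes had -0.134 and 0.049. Nfkb1 was higher in HFD in stromal-like cells, at 338 against 151 CPM (2.24, 2.16 to 2.32), and in ILC2-like cells, at 2200 against 1180 CPM (1.87, 1.69 to 2.06). Socs3 and Socs1, which damp cytokine signalling, were lower in stromal-like cells at 0.386 (0.366 to 0.407) and 0.404 (0.360 to 0.452).

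Interferon-stimulated genes, of which 29 of 30 had a row, were more often lower than higher by 1.5-fold in each of the 12 types. The count was 12 lower and 0 higher of 22 in macrophage-like cells, with a median log2 ratio of -0.696 against 0.071 for all genes. It was 10 lower and 1 higher of 28 in stromal-like cells (-0.342 against 0.071), 9 and 1 of 27 in cycling stromal-like cells, and 5 and 4 of 27 in endothelial-like cells. Of all genes 6.38% were lower and 10.61% higher in macrophage-like, 9.72% and 8.98% in stromal-like, 5.56% and 9.74% in cycling stromal-like, and 8.65% and 21.61% in endothelial-like cells. In stromal-like and plasma cell-like cells all genes, too, were more often lower, in the latter 15.83% against 10.08% higher. In the other types all genes were more often higher, with the shares given above beside the members. The median of the list was 0.168 in endothelial-like cells, next to 0.165 for all genes, and 0.096 in mesothelial-like cells, next to 0.132. In stromal-like cells Ifit1 had 71 CPM in LFD and 19.3 CPM in HFD (0.272, 0.244 to 0.303), and Rsad2 24.1 and 5.19 CPM (0.2155, 0.174 to 0.265). In adipose progenitor-like cells Rsad2 was higher instead, at 5.67 and 19.4 CPM (3.415, 1.92 to 6.61) from 13 and 116 UMIs. Isg15 was lower in macrophage-like cells (0.364, 0.241 to 0.540) and plasma cell-like cells (0.321, 0.268 to 0.387). Irgm1, an interferon-inducible GTPase, was at least 1.5-fold higher in 6 types, with ratios of 1.54 in stromal-like, 1.93 in mesothelial-like, 1.98 in cycling stromal-like, 2.05 in adipose progenitor-like and 1.72 in endothelial-like cells among them. In endothelial-like cells Gbp2 (1.55) and Cxcl9 (1.58) were higher as well, whereas Cxcl10 was lower there (0.455, 0.311 to 0.654). Gbp2 was lower in adipose progenitor-like cells (0.623, 0.506 to 0.770).

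Across the 28 profiles of type and diet, the genes whose log2(CPM + 1) was most like that of H2-Q7 were H2-Q6 (Pearson r 0.905), H2-K1 (0.868), Sept1 (0.865), Bspry (0.837) and Nebl (0.833), among 12531 genes. Those most like H2-K1 were Zfhx2 (0.878), H2-Q7 (0.868), Tspan13 (0.866), Inpp4b (0.863) and B2m (0.860). Tapbp and H2-T23 had no r above 0.209 with any other member, the value for this pair itself. For Tapbp r went down to -0.400 (H2-Q7) and for H2-T23 to -0.045 (H2-Q7). Profiles of 1 library share its depth and chemistry and both profiles of a type share its cells' identity, so the 28 points are not independent.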

How the data were processed

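Single-cell RNA-seq (10x 3' v3) was done on 1 library per diet of pooled mice. The authors deposited unnormalized UMI counts for each gene in each barcode, made with Cell Ranger 4.0.0 on mm10 per the labels, which counts only reads that map to 1 gene. Barcodes numbered 11281 (LFD) and 9631 (HFD), with 114311020 and 119498750 UMIs. Cells with 500 to 40000 UMIs, under 12.5% mitochondrial UMIs and at least 100 genes were kept, and 922 and 658 cells with the highest Scrublet doublet scores were removed. Libraries were integrated in Seurat with 1998 variable genes, without class I genes, over 30 principal components at resolution 0.3, and the clusters were named from marker lists by a rule settled after the clusters had been seen. Counts were summed per type and library. Levels have exact Poisson intervals, shares exact Clopper-Pearson intervals and ratios exact conditional binomial intervals, which cover counting error only. With 1 library per diet there was no test and no p-value, and a gene was called past 1.5-fold with at least 20 UMIs over both libraries. Named list genes were those past 1.5-fold with at least 100 UMIs in the type. The likeness of profiles used genes with at least 10 CPM in a profile. The members and lists were chosen with earlier results of these data known. The computation was tested on simulated data. The values of 1 listed regulator are not reported here.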

Additional observations from a re-analysis of the deposited data

Results flagged for a closer look

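The HFD to LFD ratio of 7 members was above 1 beyond counting error in some cell types and below 1 in others, and with 1 library per diet the difference between types was not tested. For H2-K1 the ratio in endothelial-like cells was 1.87 times that in cycling stromal-like cells (1.21 against 0.646), and for H2-D1 the same types differed 1.96 times (1.455 against 0.742). For B2m the ratio in ILC2-like cells was 1.89 times that in cycling stromal-like cells (1.20 against 0.634), where assignment of cells by markers turned the former to 0.75. For H2-Q4 the ratio in T/NK-like cells was 3.75 times that in adipose progenitor-like cells, resting on 21 and 49 UMIs in T/NK-like cells, where assignment of cells by markers gave 1.39 (0.964 to 2.00) in place of 2.29. For H2-Q6 endothelial-like and plasma cell-like cells differed 3.76 times (1.20 against 0.318, the latter 0.483 with cells assigned by markers), and endothelial-like cells, the only type above 1 beyond counting error, had 0.867 by the mean of per-cell CPM. For Tapbp the difference between endothelial-like and macrophage-like cells was 1.88 times (1.43 against 0.758). Nlrc5 differed 17.2 times between T/NK-like and cycling stromal-like cells, on 32 UMIs or fewer in each type, so that its size is poorly known, and the cycling stromal-like ratio of 0.146 was 0.241 with doublets kept. T/NK-like cells were the only type with Nlrc5 above 1 beyond counting error, and their ratio was 1.61 (0.850 to 3.09) without integration and 1.71 (0.918 to 3.26) with doublets kept.

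The cluster that stayed unnamed entered no comparison. It had 57 LFD and 91 HFD cells with medians of 1022 and 964 UMIs. H2-K1 was at 903 CPM (713 to 1130) in its LFD cells, from 77 UMIs, and at 868 CPM (701 to 1060) in its HFD cells, from 94 UMIs, above the 35.2 and 27.7 CPM that a count of 3 would give. Free RNA was not bounded for this cluster, so its part in these levels is not known.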

How the results depend on the processing

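No paired analysis was possible because each diet has 1 library, and for the same reason no replicate could be left out. H2-T23 stayed above 1 beyond counting error in every type compared under each alternative for which the types were counted. The stromal-like H2-T23 ratio of 1.35 was 1.74 under a stricter cell filter (1000 to 25000 UMIs, under 5% mitochondrial), 1.41 at resolution 0.8, 1.49 without integration (where 138 HFD cells in place of 1231 were stromal-like and 2754 in place of 1640 mesothelial-like), 1.26 with median-ratio size factors and 1.28 with the mean of per-cell CPM. The stromal-like H2-Q7 ratio of 0.425 was 0.368 with doublets kept, 0.347 under the stricter filter, 0.351 at resolution 0.8 and 0.242 with cells assigned by markers. The non-classical share of macrophage-like cells was 4.77% (LFD) and 5.31% (HFD) with doublets kept and 5.40% (HFD) under the stricter filter. That filter left 5 types with enough cells, of which 5 had H2-T23 higher, 4 H2-Q7 lower and 4 H2-K1 lower, so fewer types lie behind these counts. The cells it left were clustered and named anew, so its values can come from other cells under the same name. With no minimum count the median share of genes at least 1.5-fold lower was 13.6% in place of 8.15%.

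Among 943 values of ratios under alternatives, 799 stayed within the counting interval of the reported ratio, 136 did not, and 8 more turned the direction of a ratio beyond counting error. Assignment by markers gave H2-D1 0.829 in adipose progenitor-like cells, and H2-K1 0.684, H2-D1 0.779 and B2m 0.75 in ILC2-like cells. The mean of per-cell CPM gave B2m 0.981 and H2-Q6 0.867 in endothelial-like cells and H2-K1 0.989 in T/NK-like cells, and median-ratio size factors gave B2m 0.96 in endothelial-like cells. The cause was not tested. Of 81 ratios beyond counting error, 12 had an interval that reached 1 under at least 1 alternative. Leaving out the barcodes kept in both libraries, an alternative added after seeing the data, moved no level, ratio or non-classical share of the members beyond its interval. A separate ILC2-like cluster was not found with doublets kept, without integration or under the stricter filter.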

Other observations

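Dendritic cell-like cells, with 109 LFD and 80 HFD cells, were too few for the diet comparison but had high levels of the loading genes in the clusters. The LFD level of Tap1 was 228.5 CPM (196 to 265) and the HFD level 275 CPM (236 to 319), and the next type, cycling B-like cells, had 136 and 102 CPM. Tapbp was at 291 and 281 CPM, next to 280 and 286 CPM in neutrophil-like cells (in HFD 178 CPM with cells assigned by markers). H2-T23 was also highest there, with an LFD level of 114 CPM (91.7 to 141) and an HFD level of 314 CPM (272 to 360), and made up 35.7% and 70.1% of the non-classical UMIs. The non-classical share of heavy chain UMIs was 12.1% (10.7 to 13.6) and 16.1% (14.4 to 17.9). These levels were those of the clusters: assigning cells by markers put 498 LFD and 325 HFD cells in the type and gave 49.1 and 64.9 CPM of Tap1, 121 and 148 CPM of Tapbp, and 153 CPM of H2-T23 in HFD, none of them the highest of the types.

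Neutrophil-like cells, with 177 LFD and 74 HFD cells, had low counts, with medians of 1264 and 1021.5 UMIs per cell. The H2-D1 levels were 2114 CPM (LFD, 1940 to 2299) and 2027 CPM (HFD, 1739 to 2349), and H2-T23 at 54.4 CPM from 14 UMIs and 183 CPM from 16 UMIs. Nlrc5 had 0 UMIs in both libraries.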
